A study of Mus musculus with 155 samples.

Results

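Oligodendroglial cells of the adult mouse forebrain were compared between demyelinated and healthy animals, 1 cell per library. The OL population held 22 Tomato-positive cells sorted 6 days after injection of LPC, lysophosphatidylcholine, a lipid that strips myelin from axons. The O population held 29 Tomato-positive cells of healthy mice that had received no injection, so the needle and the lesion were not separated by a vehicle group. Both were taken by the population name in the labels, and together they made up 51 of the 155 cells of the series. Cells of both populations came from the strain Olig2-tdTomato TH39Gsat/Mmcd, in which the red fluorescent reporter tdTomato marks cells that use the oligodendroglial gene Olig2, from mice aged 8 to 10 weeks, and from the sub-ventricular zone and corpus callosum dissected as 1 tissue. Each condition drew on 5 mice, and no mouse is named for any cell. The remaining cells of the series carried a GFP reporter for the Gad1 gene, alone or with Tomato, and 2 of those populations serve below as a comparison.

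Oligodendrocytes wrap axons in myelin, a compacted membrane rich in cholesterol and galactolipids and held together by a small set of abundant proteins. They arise from progenitors that carry Pdgfra and Cspg4, pass through a newly formed stage marked by Bcas1, and then turn on the myelin genes Mbp, Mag, Mog and Mobp. After demyelination, progenitors near the lesion divide and mature into new myelin-forming cells.

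The table gave values for 3422 genes, already equalized by the authors so that every cell had almost the same total. The level of a gene below is the mean over cells of log2(value + 1), its SD is the spread between cells, and a difference is the OL level less the O level. A gene is called present in a cell when it lies among the 500 highest genes of that cell, a measure that favours long and abundant transcripts. Since no cell is tied to a mouse, each population counted as 1 sample: no test was made, and intervals on shares of cells cover counting error only. A cell had a median of 950.5 genes above 0 in OL (767 to 1335) and 1187 in O (837 to 1755). As the values were equalized, the sequencing depth of a cell could not be read from them.

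The sort was first checked against the cell type it was meant to select. Trf, the iron carrier transferrin made by oligodendrocytes, was present in OL in 22 of 22 cells (95% exact interval 84.6 to 100%) and in O in 29 of 29 cells (95% exact interval 88.1 to 100%), at levels of 14.72 ± 4.58 (SD, n = 22) in OL and 15.19 ± 2.92 (SD, n = 29) in O. Cnp, an enzyme of the myelin membrane, was present in 20 of 22 OL cells and 28 of 29 O cells, at 10.37 in OL against 12.52 in O. The progenitor receptor Pdgfra was present in 1 of 22 OL cells and 4 of 29 O cells, and the progenitor proteoglycan Cspg4 in 0 of 22 OL cells and 7 of 29 O cells. Both populations thus carried Trf and Cnp. Other mature markers were present in fewer O cells: Mbp in 7 of 29, Mal in 3, Mag in 11, Mobp in 7 and Mog in 19. Few cells showed the progenitor genes, but Cspg4 was present in as many O cells as Mbp. Presence alone does not fix the type of a cell, since the endothelial gene Pecam1 was present in 29 of 29 O cells. The reporter transcript TdTomato was at 0.31 in OL against 0.35 in O and present in 0 of 22 OL cells and 1 of 29 O cells, so the reporter RNA did not mark these cells in the table. Olig2 was not analysed here.

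Before any comparison, cells were set beside each other, because cells with neighbouring numbers in their titles resembled one another. The mean Pearson correlation of log2(value + 1) over all genes was 0.49 for pairs of OL cells at most 4 title numbers apart and 0.26 for pairs at least 13 apart; in O these values were 0.53 and 0.34. These correlations are descriptions over pairs that share cells. Average linkage with a threshold of 0.4 placed the cells in 6 sets, split here by population into OL-a (8 cells, title numbers 9 to 17), OL-b (3 cells, 18 to 20), OL-c (8 cells, 21 to 28) and OL-d (3 cells, 30 to 32), and O-a (9 cells, 1 to 8 and 17), O-b (11 cells) and O-c (9 cells). The correlation within a set ran from 0.58 to 0.70, while OL-a with OL-c reached only 0.20.

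One of the 6 sets crossed the lesion boundary. The OL-d cells, titled 30 to 32, had a mean correlation of 0.65 with O-a, as high as that within O-a (0.64), and of 0.28 with the other 19 OL cells. In the running number that opens each title, OL-d and the O cells titled 1 to 8 follow one another without a gap. A finer pattern was seen in OL-c: its cells had a mean correlation of 0.33 with O cells whose title number differed from theirs by a multiple of 4, against 0.27 with all other O cells, a step chosen after the values were seen. What makes neighbouring and regularly spaced cells alike was not tested; the labels say that cells were sorted into 96-well plates but give no plate or well for any cell. Whether signal was exchanged between libraries, so that part of the OL-d values belongs to other cells, was not tested either. The sets therefore show how far a difference between OL and O is shared, and differences that turn on the 3 OL-d cells are also given without them.

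**Figure D1:**
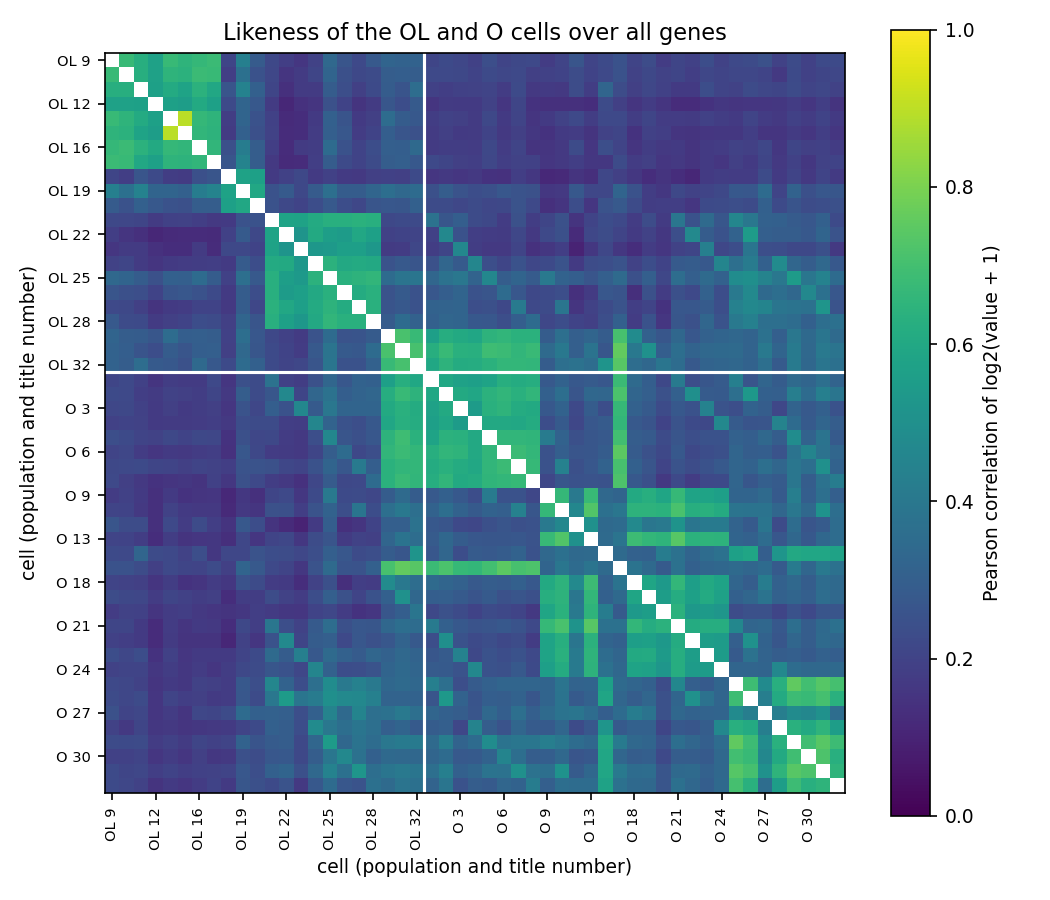
Pearson correlation of log2(value + 1) over all 3422 genes between each pair of the 22 OL and 29 O cells, ordered by population and title number, with white lines between the populations. Bright blocks along the diagonal are the sets of alike cells, and the block of OL 30 to 32 runs on into O 1 to 8 with a mean correlation of 0.64.

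Mbp, myelin basic protein, which seals the inner faces of the myelin membrane, had the largest difference of levels between OL and O among all genes, with and without OL-d. Its values ran from 4.51 to 20.19 with a median of 13.82 in the OL cells, and from 0 to 10.85 with a median of 2.67 in the O cells. Every OL cell lay above the O median, and the OL cells titled 30 to 32 were the lowest of their population. The levels were 12.47 ± 4.79 (SD, n = 22) in OL and 3.00 ± 3.02 (SD, n = 29) in O, a difference of 9.47, and 10.68 without OL-d. By set the level was 15.68 in OL-a, 14.77 in OL-b, 11.29 in OL-c and 4.81 in OL-d, against 3.79 in O-a, 2.02 in O-b and 3.42 in O-c. All 4 OL sets thus lay above all 3 O sets, though OL-d lay close to O-a. Mbp was present in OL in 22 of 22 cells (95% exact interval 84.6 to 100%) and in O in 7 of 29 cells (95% exact interval 10.3 to 43.5%).

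Mal, a small lipid-raft protein that sorts cargo to the myelin membrane, was also higher in OL. Its values ran from 0 to 19.50 with a median of 4.18 in the OL cells, and from 0 to 6.29 with a median of 0 in the O cells. The levels were 6.84 ± 6.22 (SD, n = 22) in OL and 1.02 ± 1.69 (SD, n = 29) in O, a difference of 5.82, or 6.47 without OL-d. The set levels were 12.84 in OL-a, 8.04 in OL-b, 1.95 in OL-c and 2.67 in OL-d, against 1.32 in O-a, 0.62 in O-b and 1.21 in O-c. The excess sat in OL-a and in the OL-b cell titled 19 (17.16), while the other OL-b cells were at 2.32 and 4.65. Mal was present in OL in 13 of 22 cells (95% exact interval 36.4 to 79.3%) and in O in 3 of 29 cells (95% exact interval 2.19 to 27.4%).

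Mag, the myelin-associated glycoprotein that faces the axon in the innermost myelin layer, overlapped widely between the populations. Its values ran from 0 to 19.50 with a median of 6.72 in the OL cells, and from 0 to 12.38 with a median of 1.83 in the O cells. The levels were 7.38 ± 5.51 (SD, n = 22) in OL and 4.18 ± 4.52 (SD, n = 29) in O, and Mag was present in 17 of 22 OL cells and 11 of 29 O cells. The difference of 3.20 was 4.12 without OL-d. Here OL-c was highest: the set levels were 7.75 in OL-a, 1.17 in OL-b, 11.52 in OL-c and 1.55 in OL-d, against 3.63 in O-a, 1.95 in O-b and 7.44 in O-c. The O-c cells nearly matched OL-a, so that neither population was uniformly high or low for this gene. The 3 marker genes therefore had 3 different orders of sets, with OL-a highest for Mbp and Mal and OL-c for Mag.

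Mal lies on chromosome 2, 127633226 to 127656695, minus strand of GRCm38, and Mag on chromosome 7, 30899176 to 30914873, minus strand. The stretch just before the annotated start of each gene is shown because these genes were high in different OL sets; it was read 5′ to 3′ on the gene's strand from RefSeq (GRCm38.p6, chr2:127656696-127656945 and chr7:30914874-30915113). Capitals mark matches to ACAAAG or ACAATG on either strand, short forms of the site bound by SOX factors such as Sox10; the motifs do not overlap one another.
Mal: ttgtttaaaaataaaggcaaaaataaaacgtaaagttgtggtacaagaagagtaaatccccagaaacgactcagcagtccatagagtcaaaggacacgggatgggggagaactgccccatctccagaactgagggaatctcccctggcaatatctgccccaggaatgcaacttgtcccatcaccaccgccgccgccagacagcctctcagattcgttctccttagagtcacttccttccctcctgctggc
Mag: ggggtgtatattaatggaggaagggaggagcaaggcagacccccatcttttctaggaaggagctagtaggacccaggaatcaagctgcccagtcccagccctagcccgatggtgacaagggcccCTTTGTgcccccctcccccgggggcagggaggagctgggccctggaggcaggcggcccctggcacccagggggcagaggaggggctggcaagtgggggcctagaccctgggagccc
Mag had 1 match, on the reverse strand, and Mal had none in these letters. Of 27025 promoters in the RefSeq table, 25.5% held a match in the 250 bases before the start, and a match is a description of the letters and not a site.

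The mature oligodendrocyte list had 36 measured members, of which 12 were higher in OL by at least 2 and 8 lower, with 16 between. Over all 3422 genes, 8.36% were higher and 7.92% lower by that amount; over the 1277 genes with a mean scaled signal of at least 20 over both populations (value divided by the column total, times 1000000), the shares were 21.9% and 20.9%, and 35 of the 36 members are among these. Of all 36 members 33.3% were higher and 22.2% lower, and of those 35 members 34.3% and 22.9%. The set of 1277 has a floor on signal and was not matched to the list in abundance. A gene could also enter it through 1 population alone, so these shares are descriptions only. Of all 286 higher genes 280 were in it, as were 267 of the 271 lower ones. The median difference over the list was 0.48, beside -0.099 over all genes. That median rests on which cells are counted: it was 0.75 without OL-d, -0.0025 without the OL cells titled 9 to 16, -0.088 without the O cells titled 1 to 8, and -0.29 when the 4 OL and 3 O sets were weighted equally. The list as a whole therefore had no stable direction, unlike Mbp within it.

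Among the other members that were higher, Anxa5, a calcium-dependent membrane-binding annexin, stood at 5.15 in OL against 0 in O. Anxa5 was present in OL in 10 of 22 cells (95% exact interval 24.4 to 67.8%). In O it was present in 0 of 29 cells (95% exact interval 0 to 11.9%). It was high in OL-a (10.50) and in the OL-b cell titled 19 (14.77), 0 in the other OL-b cells, and at 0.86 in OL-c and 2.59 in OL-d. Cd9, a tetraspanin of the oligodendrocyte surface, was at 5.02 ± 3.12 (SD, n = 22) in OL and 1.09 ± 1.85 (SD, n = 29) in O and was spread over more sets: 5.75 in OL-a, 4.22 in OL-b, 6.29 in OL-c and 0.49 in OL-d, against 0.75 in O-a, 1.34 in O-b and 1.12 in O-c. Plekhb1 was led by OL-b (13.83), and Evi2a by OL-a (9.46). Opalin, a myelin sialoglycoprotein, shows what OL-d does to a difference: OL-d (12.76) and O-a (11.17) were both high, and the difference of 2.10 became 1.04 without OL-d. Mobp, a cytoplasmic protein of compact myelin, was at 3.59 in OL against 1.58 in O, and Mog, a glycoprotein of the outermost myelin layer, at 5.98 in OL against 5.35 in O. Both differences, like those of Mal and Mag, were smaller than the SD between OL cells.

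The 8 members that were lower included genes just as closely tied to myelin. Abca2, a lipid transporter of oligodendrocyte lysosomes, was at 5.01 ± 3.98 (SD, n = 22) in OL and 9.65 ± 5.63 (SD, n = 29) in O. Gsn, the actin-severing protein gelsolin, ran from 0 to 16.62 with a median of 5.92 in the OL cells, and from 5.29 to 20.19 with a median of 11.06 in the O cells, and was present in 13 of 22 OL cells and 29 of 29 O cells. Enpp2, autotaxin, which makes lysophosphatidic acid from the injected class of lipid, was at 5.95 in OL against 9.60 in O. In all 3 genes the highest set was O-b, at 15.12, 14.74 and 15.18, against at most 7.93, 9.85 and 6.26 in the other O sets. Ugt8a, which makes the galactolipids of myelin, was present in 1 of 22 OL cells and 12 of 29 O cells, and it too was carried by O-b (8.62). Pllp, plasmolipin, was led instead by O-c (10.52). Cnp, an enzyme of non-compact myelin, was broadly expressed at 10.37 in OL against 12.52 in O, with OL-b lowest at 3.41 and OL-d at 14.73. None of the 8 had every run of OL titles below every run of O titles.

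**Figure D2:**
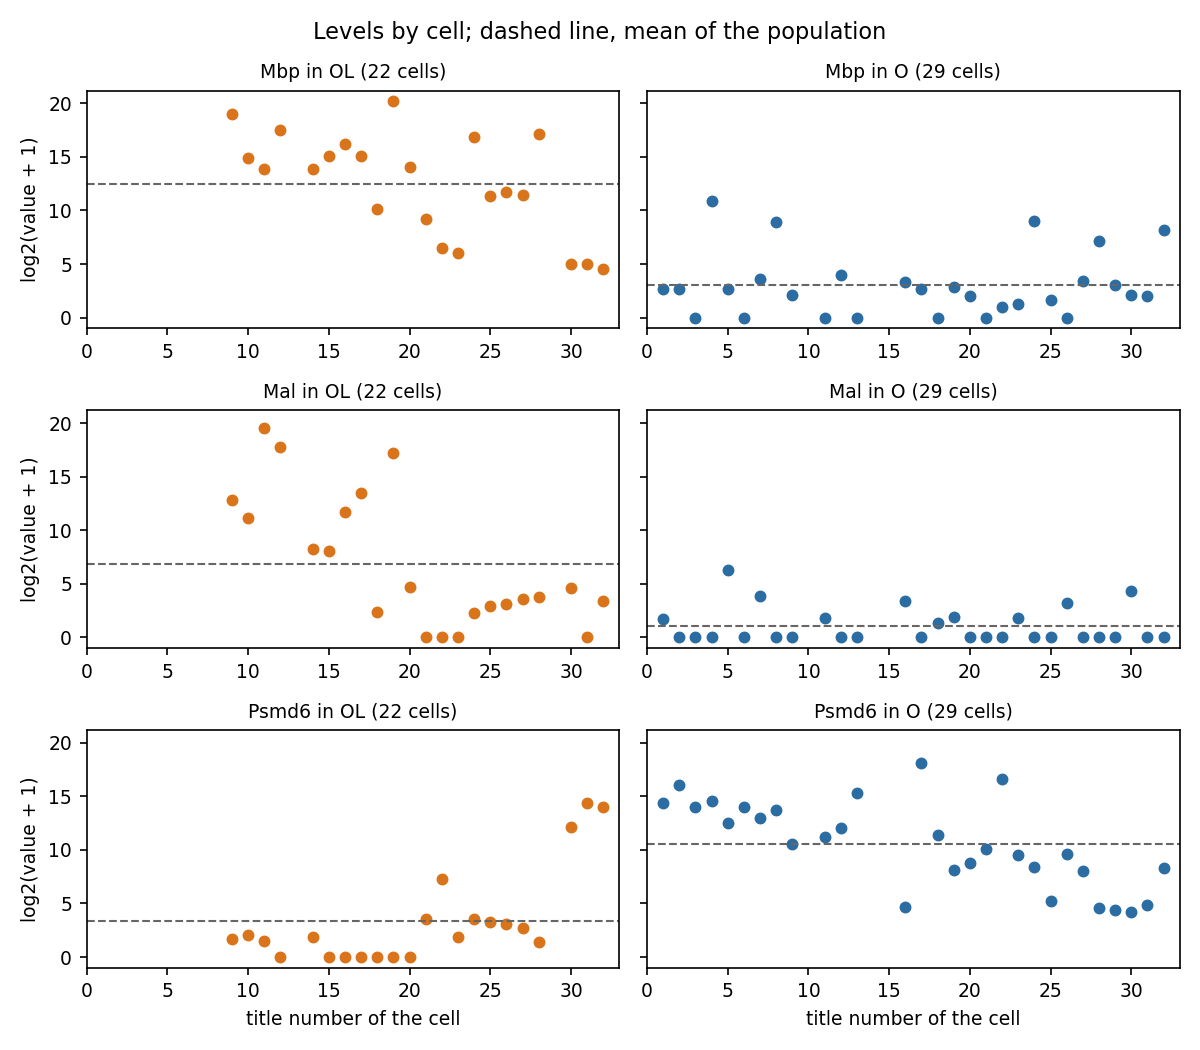
Log2(value + 1) of Mbp, Mal and Psmd6 in each OL cell (left, orange) and O cell (right, blue) against the number in the cell's title; dashed lines are population means. Mbp in OL stays at or above 4.51, Mal is high in OL cells titled 9 to 19 except title 18, and Psmd6 is low in OL up to title 28 and high in OL 30 to 32.

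**Figure D3:**
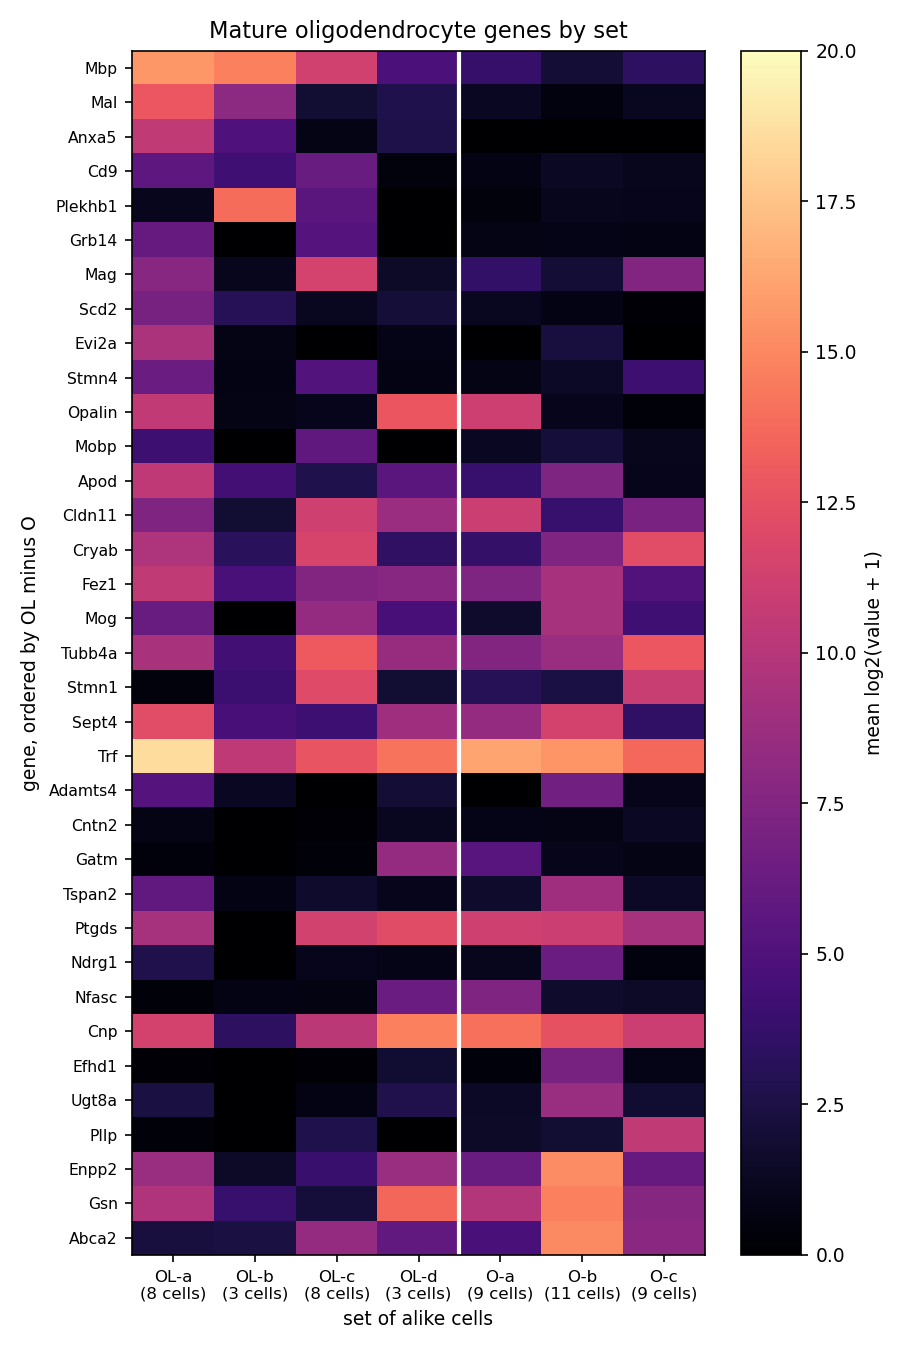
Mean log2(value + 1) of 35 of the 36 mature oligodendrocyte genes in each set of alike cells, ordered from the most positive to the most negative difference between OL and O, with a white line between the populations. Mbp is higher in every OL set than in any O set, whereas Abca2, Gsn and Enpp2 at the bottom are brightest in O-b.

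Of genes of earlier lineage stages, 1 of 10 progenitor genes was higher (10%) and none lower, and 1 of 8 newly formed oligodendrocyte genes was higher and 1 lower (12.5% each), beside 8.36% and 7.92% over all genes. The progenitor gene was Sox10, the factor that drives myelin genes and is used at all stages of the lineage, at 4.47 ± 5.25 (SD, n = 22) in OL and 1.94 ± 4.05 (SD, n = 29) in O. Sox10 was present in 8 of 22 OL cells and 4 of 29 O cells, and its excess rested on OL-a, OL-b and OL-c (5.08, 4.35 and 4.68), while O-b (4.01) came close to them. The OL-b level was that of the cell titled 20 (13.05), the other OL-b cells being at 0. Olig1, a partner factor of the lineage, was near 0 in both (1.09 against 0.82). Among the newly formed oligodendrocyte genes, Bcas1 was higher (4.25 against 1.37) and was high in OL-c, at 10.16 against at most 1.98 in the other OL sets. Prom1, a membrane protein also found on neural progenitors, was lower (1.46 against 7.11) and was led by O-b (13.70), and its runs of title numbers did not overlap. Tcf7l2, which marks newly formed cells, was at 3.72 against 4.62.

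Of 13 S phase genes, 4 were higher and 1 lower in OL, shares of 30.8% and 7.69% beside 8.36% and 7.92% over all genes. The 4 were highest in OL-c, and 0 of them had runs of title numbers that did not overlap. Mcm5 of the replication helicase was at 4.25 in OL against 0.96 in O, with set levels of 0.24 in OL-a, 3.25 in OL-b, 9.81 in OL-c and 1.14 in OL-d, against 0.97 in O-a, 0.81 in O-b and 1.14 in O-c. Cdc6, which loads that helicase, was at 9.30 in OL-c and at 0 in the other 3 OL sets, and Rpa2 and Tipin, which bind and protect single-stranded DNA at the fork, were at 8.97 and 7.55 in OL-c. Of the remaining S phase genes, Gins2 was also highest in OL-c (6.38), whereas Pcna was at 0.095 against 0.27, Rrm1 at 0.80 against 0.60 and Nasp at 1.38 against 1.54, and Rrm2 (2.15 against 0.42) was highest in OL-b (12.54). None of the 9 measured G2 and M phase genes differed by 2: Top2a was at 0.17 against 0.24 and Birc5 at 1.62 against 0.27. Bcas1 and the 4 higher S phase genes were thus highest in the same set of 8 cells. No cycling was read from it, since Ubr7, the S phase member that was lower (1.78 against 7.10), was just as bound to 1 set, O-b (13.37).

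Across all genes, 286 were higher in OL by at least 2 and 271 lower, the 8.36% and 7.92% given above. Every list count below is to be read beside these shares. Without OL-d these counts were 355 and 314, of which 280 and 265 were the same genes. In 145 of the higher genes (4.24% of all genes) the mean of every run of 8 OL title numbers lay above every O run, and in 67 of the lower genes (1.96%) below. When the 4 OL and 3 O sets replaced the runs, 49 and 43 genes were so separated. Among the 286 higher genes, 111 were present in 0 O cells, whereas 7 of the 271 lower genes were present in 0 OL cells. Without OL-d the second count was 45, so the gap between these counts leans on those 3 cells. A gene present in 0 cells can still have signal there below the 500 highest. The shares of all genes present in 0 O cells and in 0 OL cells are not given here. The counts of 111, 7 and 45 thus lack a background and do not mark genes as switched on or off.

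The 12 leading genes each way were ranked by how far apart the populations were in the percentage of cells where the gene was present. On the higher side these were Nelfb, Mbp, Nkain2, Fbxl5, B230217C12Rik, Ikzf5, Got1, Tet2, Sphk2, Rplp0, Hsp90ab1 and Fgfr1op, and all 12 had runs that did not overlap, 9 also sets. The rule used this contrast, so those counts describe the choice. Nelfb is a subunit of the complex that pauses RNA polymerase II (chromosome 2, 25199712 to 25211489, minus strand). It was at 5.73 ± 3.97 (SD, n = 22) in OL and 0.14 ± 0.51 (SD, n = 29) in O. Nelfb was present in OL in 17 of 22 cells (95% exact interval 54.6 to 92.2%). In O it was present in 0 of 29 cells (95% exact interval 0 to 11.9%). Fbxl5, the iron-sensing subunit of a ubiquitin ligase that degrades iron regulatory proteins (chromosome 5, 43744615 to 43821638, minus strand), was at 5.68 in OL against 0.051 in O and present in 15 of 22 OL cells and 0 of 29 O cells. Its set levels were 10.09 in OL-a, 4.39 in OL-b, 2.95 in OL-c and 2.48 in OL-d, against 0.10 in O-a, 0 in O-b and 0.063 in O-c, so OL-a led and even OL-d exceeded every O set.

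Tet2, which oxidizes methylated cytosine (chromosome 3, 133463679 to 133545139, minus strand), was at 6.29 ± 3.62 (SD, n = 22) in OL and 1.20 ± 2.21 (SD, n = 29) in O, with 5.56 in OL-d. Nkain2, a membrane protein that interacts with the sodium pump, was at 4.98 in OL against 0.47 in O, and Ikzf5, an Ikaros family zinc finger, was 0 in every O cell and present in 15 of 22 OL cells. Got1, the cytosolic aspartate aminotransferase, was at 4.58 in OL against 0.059 in O. Sphk2, which makes sphingosine 1-phosphate, was at 6.80 in OL against 1.29 in O but 0 in OL-d, as was Rplp0, a protein of the ribosomal stalk (5.02 against 0.93). Hsp90ab1, a cytosolic chaperone, was at 6.58 ± 4.16 (SD, n = 22) in OL and 1.60 ± 2.41 (SD, n = 29) in O and at 0.49 in OL-d. These last 3 are the leading higher genes whose sets overlapped between OL and O.

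**Figure D4:**
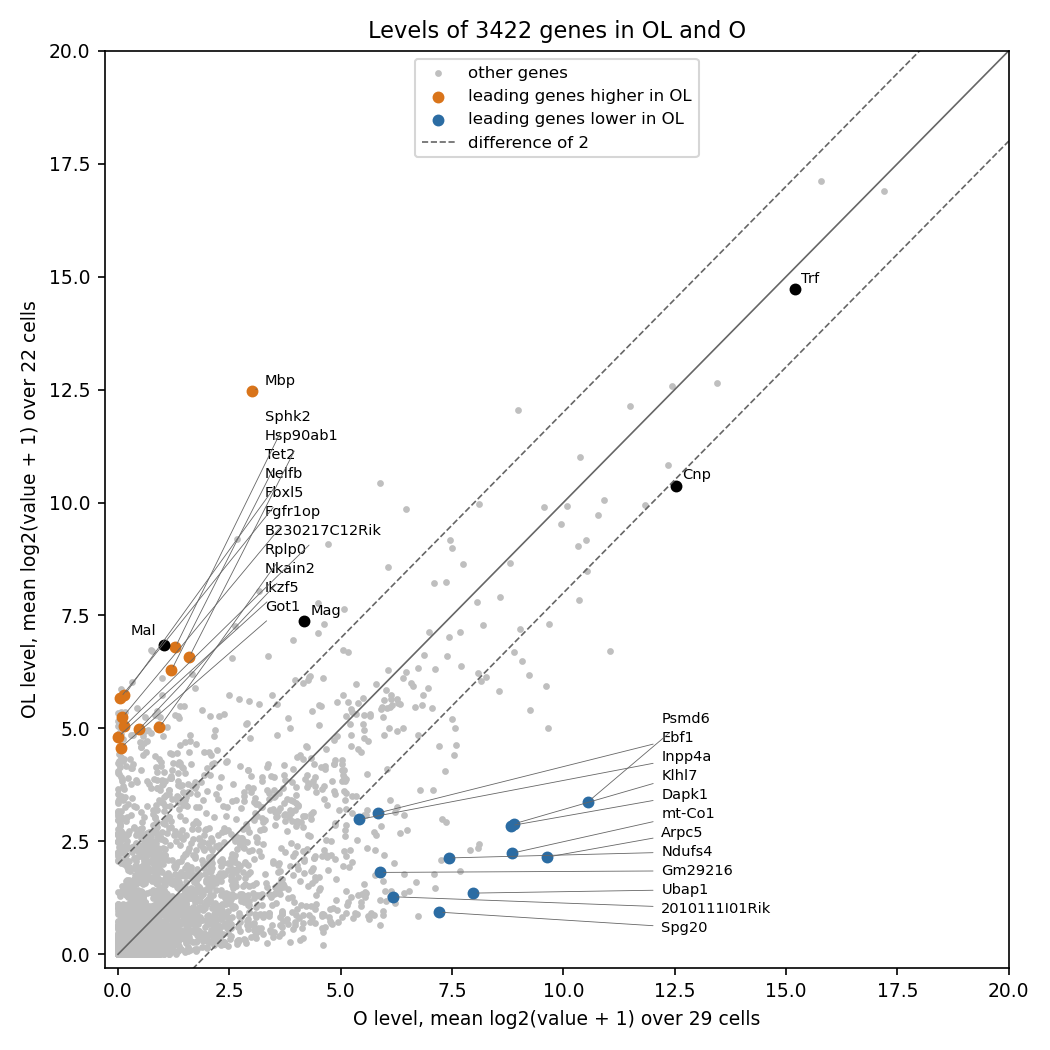
OL level against O level, as mean log2(value + 1), for all 3422 genes; the solid line marks equal levels and dashed lines a difference of 2. The 12 leading genes higher in OL (orange) lie at 1.60 or less in O except Mbp (3.00), the 12 lower in OL (blue) lie between 5.42 and 10.56 in O, and Trf, Cnp, Mag and Mal are drawn in black.

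The 12 leading genes on the lower side were Arpc5, Psmd6, Dapk1, Klhl7, mt-Co1, Ubap1, Gm29216, Spg20, 2010111I01Rik, Inpp4a, Ebf1 and Ndufs4, of which 4 had runs and 0 sets that did not overlap. Psmd6, a regulatory subunit of the proteasome (chromosome 14, 14112174 to 14120984, minus strand), ran from 0 to 14.42 with a median of 1.89 in the OL cells, and from 4.24 to 18.14 with a median of 10.52 in the O cells, and was present in OL in 5 of 22 cells (95% exact interval 7.82 to 45.4%) and in O in 29 of 29 cells (95% exact interval 88.1 to 100%). Yet its set levels were 0.89 in OL-a, 0 in OL-b, 3.34 in OL-c and 13.50 in OL-d, against 14.48 in O-a, 11.09 in O-b and 5.99 in O-c, so OL-d matched O-a and the remaining OL cells were low. Dapk1, a death-associated kinase, and Klhl7, an adaptor of a ubiquitin ligase, followed the same sets, at 13.83 and 13.95 in OL-d and 15.08 and 15.22 in O-a. Over the 51 cells Dapk1 correlated with Klhl7 at 0.99 and with Psmd6 at 0.87, a description over cells that share sets. Without OL-d the 3 differences widened from -7.18, -5.97 and -6.00 to -8.78, -7.70 and -7.74.

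Arpc5, a subunit of the actin-branching Arp2/3 complex (chromosome 1, 152766542 to 152775597, plus strand), was at 2.15 ± 3.61 (SD, n = 22) in OL and 9.64 ± 3.99 (SD, n = 29) in O, with O-b highest at 13.37 and OL-d at 9.12. Ubap1, an adaptor of endosomal sorting, and Spg20, spartin, were likewise led by O-b (13.93 and 13.26). Ndufs4, of respiratory complex I, was led by O-a (13.83) and OL-d (12.79) and was at most 1.07 in OL-a, OL-b and OL-c. Ebf1 and Inpp4a were more even: Ebf1, a transcription factor, was at 3.13 ± 2.31 (SD, n = 22) in OL and 5.84 ± 1.39 (SD, n = 29) in O, and Inpp4a, a phosphoinositide phosphatase, at 2.99 ± 2.85 (SD, n = 22) in OL and 5.42 ± 1.19 (SD, n = 29) in O. Both were low in OL-a and OL-b and similar to O in OL-d. Gm29216 is annotated as an unprocessed pseudogene, so its reads may be shared with a near-identical copy.

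Chaperones and the protein-degrading machinery moved in both directions. Of 32 chaperone genes 5 were higher and 3 lower (15.6% and 9.38%, beside 8.36% and 7.92% over all genes). Hspa8, the constitutive Hsp70, was at 9.20 ± 4.84 (SD, n = 22) in OL and 2.66 ± 3.21 (SD, n = 29) in O and was present in OL in 18 of 22 cells (95% exact interval 59.7 to 94.8%) and in O in 10 of 29 cells (95% exact interval 17.9 to 54.3%). It was high in OL-a and OL-c (10.54 and 11.26) and in the OL-b cell titled 19 (15.58), while the other OL-b cells were at 3.55 and 3.71, and OL-d was at 1.75, below all 3 O sets. Hsp90b1, the endoplasmic reticulum form of Hsp90, was at 9.07 against 4.71, whereas Hspa5, its Hsp70 partner in that compartment, was lower (2.13 against 4.39), as were Dnajb11 (0.87 against 4.14), Manf (0.32 against 2.69) and the stress factor Ddit3 (0.22 against 2.40). The unfolded protein response list as a whole had 1 of 10 genes higher and 3 lower. Of 26 proteasome genes 6 were higher and 3 lower, with Psmc3 (4.90 against 0.053) furthest above and Psmd6 furthest below. Of 43 ubiquitin ligase and deubiquitinase genes only Fbxl5 and Ube2v1 (4.15 against 1.43) were past a difference of 2.

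Lipid genes showed no common direction. Of 13 myelin lipid genes 3 were higher: Pcyt2 of phosphatidylethanolamine synthesis (4.77 against 0), the stearoyl-CoA desaturase Scd2 (3.67 against 0.75) and the fatty acid synthase Fasn (2.52 against 0.21). The 3 that were lower were Ugt8a, Abca2 and Acaca (0.28 against 3.87), the carboxylase that feeds Fasn. The higher genes were led by OL-a (7.95, 6.99 and 6.47) and the lower by O-b. Pcyt2 was present in OL in 14 of 22 cells (95% exact interval 40.7 to 82.8%). In O it was present in 0 of 29 cells (95% exact interval 0 to 11.9%). None of 6 cholesterol synthesis genes differed by 2; Dhcr7, which completes cholesterol, was at 3.29 against 2.36.

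In energy metabolism, Aldoa (4.48 against 0.62) and Gapdh (3.69 against 0.88) were higher among 7 glycolysis genes and none was lower. They were high in different cells, Aldoa in OL-a (8.66) and the OL-d cell titled 30 (12.82) and Gapdh in OL-b (8.03) and OL-c (5.99). Of 48 nuclear genes of the respiratory chain 9 were higher and 6 lower. Of its 12 ATP synthase genes 4 were higher and 8 were within 2: Atp5o (4.85 against 0.29), Atp5l (5.42 against 1.88), Atp5g1 (4.71 against 1.62) and Atp5f1 (7.31 against 4.63) were the higher ones. Of its 24 complex I genes 1 was higher, Ndufb7 (3.17 against 0), 5 were lower, with Ndufs4 (2.13 against 7.42) and Ndufa2 (0.80 against 4.36) furthest below, and 18 were within 2. These 2 subgroups were noticed after the values were seen. Of 7 mitochondrially encoded genes, mt-Cytb was higher (4.03 against 1.03) and mt-Co1 (2.24 against 8.86) and mt-Nd5 (0.55 against 2.92) lower. Slc6a9, a glycine transporter, was at 10.42 ± 5.04 (SD, n = 22) in OL and 5.89 ± 5.24 (SD, n = 29) in O, but O-c (11.40) came close to OL-a (11.65).

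Of 11 iron handling and antioxidant genes 4 were higher (36.4%, beside 8.36% over all genes) and 1 lower. Without OL-d 3 were higher (27.3%), beside 355 of all 3422 genes. The median difference of 1.02 was 0.36 without OL-d. Cat, catalase, was at 4.28 against 0.032 and was carried by the OL cells titled 9 to 16 (10.71). The glutathione transferase Gstp1 (7.78 against 4.48) and the ferritin chains Ftl1 (7.11 against 4.50) and Fth1 (7.63 against 5.07) were expressed in both populations. Ftl1 was highest in OL-d (11.67) and O-a (10.04), and its difference was 1.89 without OL-d. Hmox2, the constitutive haem oxygenase, was lower (0.74 against 4.76). Among 8 genes of injury-associated oligodendrocytes, Sgk1 (2.17 against 4.42) and Cd63 (1.06 against 4.33) were lower. Of 7 interferon and antigen presentation genes, H2-T23, a class I molecule (6.96 against 3.93), and Ddx58, the RNA sensor RIG-I (4.22 against 1.64), were higher. The immediate early list had 1 of 4 genes lower, Zfp36 (2.17 against 4.59), and none higher.

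Among membrane and transport genes, 9 of 43 solute carriers were higher and 5 lower. Slc22a5, the carnitine carrier, was at 5.00 against 0.17 and Slc27a1, which imports fatty acids, at 4.91 against 0.75, while the bicarbonate exchanger Slc4a2 was at 1.21 against 5.87. Of 48 vesicle trafficking genes 6 were higher, led by Rab11b of recycling endosomes (6.73 against 0.74, 12.98 in OL-a), and 5 lower, led by Snap25 (2.02 against 6.20). Ctsb, the lysosomal protease cathepsin B, was at 6.03 against 0.32. Ctsb was present in OL in 13 of 22 cells (95% exact interval 36.4 to 79.3%). In O it was present in 0 of 29 cells (95% exact interval 0 to 11.9%). It was the only higher gene of 22 in the lysosome and autophagy list. Beside it 2 were lower, Npc2 (2.13 against 4.39) and Neu1 (2.69 against 6.34). Of 22 ion channel and receptor genes 2 were higher, among them the glutamate receptor Grm3 (4.22 against 0.02), and 2 lower, among them the potassium channel Kcna1 (1.09 against 4.12).

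Tubulins, actin regulators and motors leaned to the higher side, with 7 of 35 higher (20%) and 1 lower (2.86%). Without OL-d 11 were higher and 1 lower, beside 355 and 314 of all 3422 genes. Tuba1a was at 8.58 against 6.07, Tuba1b at 5.28 against 2.07, the actin-binding Tmsb4x at 3.77 against 0.71 and cofilin, Cfl1, at 4.82 against 2.16. The shares among the list's 18 abundant members were 38.9% and 5.56%, beside 21.9% and 20.9% over all such genes. A gene could count as abundant through the population where it is high. Shares of abundant members, here and for the Notch, Wnt and BMP genes below, are therefore descriptions only. Dpysl2, a microtubule-binding protein of axon and process growth, was present in 22 of 22 OL cells and 28 of 29 O cells and was at 9.87 ± 3.90 (SD, n = 22) in OL and 6.47 ± 2.83 (SD, n = 29) in O; it was 1 of 3 higher genes among 26 of migration, guidance and adhesion, 3 of which were lower. Of 10 Notch, Wnt and BMP genes 0 were higher and 3 lower (30%), all 3 among the list's 4 abundant members: the kinases Gsk3a (0.20 against 2.30) and Gsk3b (5.01 against 7.56) and the scaffold Apc (2.64 against 5.78). Of 13 mTOR and growth factor genes 0 were higher and 1 lower, the receptor Tyro3 (0.84 against 3.25).

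**Figure D5:**
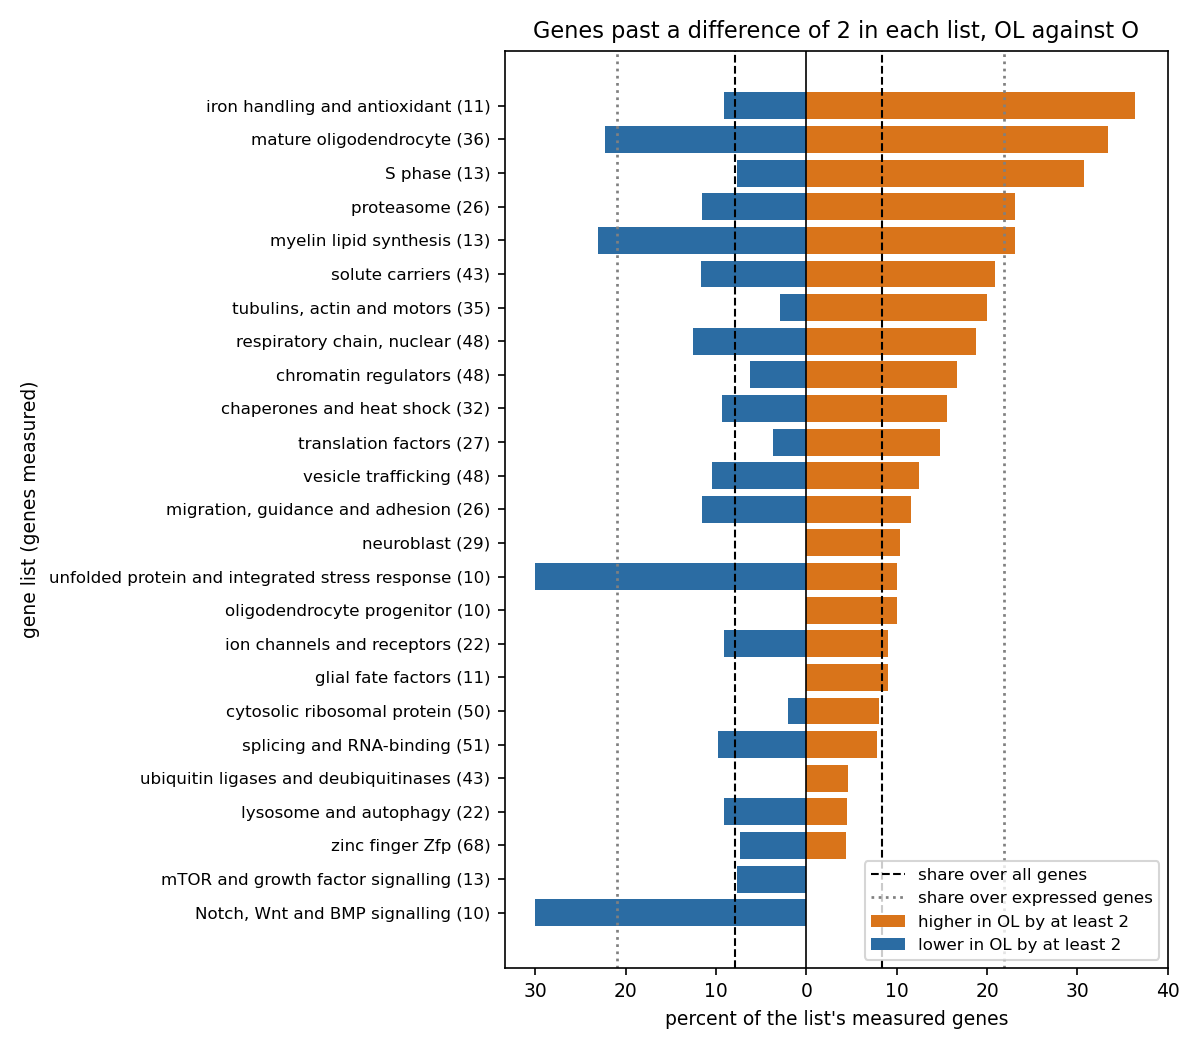
Percent of the measured genes of each list with at least 10 genes that were higher (right, orange) or lower (left, blue) in OL than in O by at least 2; dashed lines are the shares over all genes, 8.36% and 7.92%, and dotted lines those over the 1277 abundant genes, 21.9% and 20.9%. Bars past the dotted lines on the right belong to the iron handling and antioxidant, mature oligodendrocyte, S phase, proteasome and myelin lipid lists, and those past the dotted line on the left to the unfolded protein response, Notch, Wnt and BMP, myelin lipid and mature oligodendrocyte lists. Bars count all measured members of a list and dotted lines only abundant genes, so the 2 are not like shares. Among abundant members alone, further lists passed the dotted lines, such as vesicle trafficking (40% higher, 33.3% lower) and solute carriers (34.8% and 21.7%). Splicing and RNA-binding genes (18.2% higher) did not pass on the right.

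Genes of nuclear and RNA functions were split between the directions. Of 48 chromatin regulators 8 were higher and 3 lower; Tet2, the histone methyltransferase Kmt2d (6.21 against 1.66) and the bromodomain protein Brd9 (4.36 against 0.063) were furthest above, and the heterochromatin protein Cbx3 (5.40 against 9.25) furthest below. Of 51 splicing and RNA-binding genes 4 were higher, led by Ptbp2 (5.37 against 0.15), and 5 lower, led by Srsf5 (1.16 against 5.16). Of 68 Zfp zinc finger genes 3 were higher and 5 lower, led by Zfp280c (5.74 against 0.99) and Zfp37 (2.32 against 7.90). Ribosomal protein genes, 50 in all, had 4 higher and 1 lower, and 27 translation factors also 4 and 1, with the helicase Eif4a3 (5.87 against 0.06) and the initiation factor Eif4g2 (7.26 against 2.63) furthest above. Ribosomal proteins, tubulins and Gapdh have near-identical copies or pseudogenes, and how the counting divided reads between these was not tested.

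Differences among the OL cells themselves were also large. In the run titled 9 to 16, Eif4a3, Slc37a3, Cat, Eprs, Pigs, Ipo9, Fam168a and Eral1 stood furthest above the other OL cells, each by 9.17 to 9.46 and each present in 7 of 7 cells. In the run titled 17 to 24 the leading genes were Acat1, Psma2, Pclaf, Hnrnpa2b1, Plekhb1, Traf2, Eif4g2 and Esco2, by 6.03 to 7.17. In the run titled 25 to 32 they were Pja1, Leng1, Gstm5, Slc12a9, Hhip, 4931406P16Rik, Tmed10 and Adi1, by 6.92 to 9.56. The runs chose these genes, so the differences describe them only. The first run's genes were at 0.42 or less in O apart from Eprs (1.49), whereas those of the third had O levels of 2.49 to 6.96.

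Among markers of other cell types, neuroblast genes were the most numerous in the table. Of these 29 genes 3 were higher (10.3%) and 0 lower, namely Nrxn3 (4.84 against 1.62), Stmn4 (4.40 against 2.08) and Map1b (4.23 against 2.15); the defining neuroblast gene Dcx was at 1.73 against 1.40 and present in 5 of 22 OL cells and 5 of 29 O cells. The list's summed signal, as log2(sum + 1), ran from 4.76 to 19.50 in OL (median 10.30) and 3.96 to 16.42 in O (median 8.74). Gad1 (0.42 against 0.34) and EGFP (0.36 against 0.43) were near 0 in both. Of 5 astrocyte and stem cell genes Sparcl1 was lower (2.09 against 7.26) and was led by O-b (13.02), and of 4 neuronal genes Snap25 was lower. Of 3 endothelial and mural genes Pecam1 was at 8.49 ± 2.87 (SD, n = 22) in OL and 10.53 ± 1.83 (SD, n = 29) in O and Bsg at 1.09 against 5.15; Pecam1 was present in 21 of 22 OL cells and 29 of 29 O cells, so this endothelial adhesion gene was read in nearly every cell of both populations. The summed signal of the endothelial and mural list ran from 3.90 to 13.43 in OL and 8.63 to 18.99 in O. Itgam, the 1 microglial gene measured, was at 0.67 against 0.02 and present in 1 of 22 OL cells and 0 of 29 O cells. The part of these genes in the differences above was not tested.

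The same contrast of lesion and control was available for GFP-positive cells, NBL (27 cells) against NB (37 cells) of the strain CB6-Tg(Gad1-EGFP)G42Zjh/J, which share no cell with OL or O. There 334 genes (9.76%) were higher in the lesion by at least 2 and 287 (8.39%) lower. In all, 22 genes were higher in both OL and NBL, 7.69% of the OL genes and 6.59% of the NBL genes, and 16 were lower in both, 5.90% and 5.57%. These shares are below the shares over all genes. Another 39 genes went opposite ways in the 2 sorts: 21 were higher in OL and lower in NBL, 7.34% of the OL genes beside 8.39% over all genes, and 18 were lower in OL and higher in NBL, 6.64% beside 9.76%. Mbp, which set OL apart, was near 0 in both GFP populations, at 0.13 in NBL and 0.062 in NB. Sphk2 and Fbxl5 were likewise low there, at 0.11 and 0.58 in NBL.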

How the data were processed

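Messenger RNA of single sorted cells was measured by SMART-Seq2, per the labels' protocols. Per the submitters' processing notes, kallisto, limma and GRCm38 were used; versions, order and the choice of genes: not given in the sources used here. Deposited values are a signal that the authors had equalized: all cells had equal values at their 8 top ranks (relative tolerance 1e-06), and totals spread by 0.101%, so they were not treated as counts although the file calls them estimated counts. Levels were means of log2(value + 1), which understates differences of low genes. A pseudocount of 1, no filter on low values and all cells were used. The text names the 12 genes in either direction for which presence among a cell's 500 highest differed most between OL and O (level difference at least 2), up to 4 members of each of 41 lists, fixed lineage and reporter genes, and 8 genes per run of 8 title numbers; some set and subgroup examples were added after their values were seen. The members and lists were chosen with earlier results of these data known. Shares have exact Clopper-Pearson intervals (95%), also where the count was 0. The scripts used Python 3.11.15, numpy 2.4.6, pandas 2.3.3 and scipy 1.17.1. The step that takes differences was run on values shuffled over the cells, with a known shift added to some genes. Shuffling removes the sets of alike cells, so this checked the arithmetic only. The set of 1277 abundant genes was added after the values were seen. Gene positions came from GENCODE vM21. A few members of the lists count in their totals and are not reported here by name. Alternatives covered the pseudocount, a filter at a scaled signal of 20, weights of runs, cells with at least 1000 genes, left-out runs and cells, and ranks.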

Additional observations from a re-analysis of the deposited data

Results flagged for a closer look

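Of the 24 leading genes, 5 (20.8%) moved in opposite directions with the lesion in the Tomato and the GFP sort, each by at least 2 on the log2(value + 1) scale. Over all 557 genes that differed by 2 between OL and O, 39 did so. Nelfb, of the polymerase-pausing complex, differed by 5.59 between OL and O and by -3.20 between NBL and NB. The chaperone Hsp90ab1 differed by 4.98 between OL and O and by -2.73 between NBL and NB. The kinase Dapk1 differed by -5.97 between OL and O and by 2.06 between NBL and NB. The mitochondrial gene mt-Co1 differed by -6.62 between OL and O and by 3.26 between NBL and NB. The pseudogene Gm29216 differed by -4.06 between OL and O and by 3.01 between NBL and NB. In the first 2 the lesion cells were higher in the Tomato sort and lower in the GFP sort, and in the other 3 the reverse. The difference between the sorts was not tested, since each population is 1 sample.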

How the results depend on the processing

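The main results, the counts of genes higher and lower, the median of the mature oligodendrocyte list and Mbp, were recomputed under 16 alternatives. Of these, 2 (without OL-d, and sets weighted equally) were added after the data were seen. The counts of genes whose runs do not overlap were recomputed only with sets in place of runs. Of the 66 values, 59 stayed close to the one reported. For counts of genes, close meant within a fixed factor, and for Mbp a shift below its SD between cells. For the list median it meant a shift below 0.97, which is wider than the median of 0.48 itself. With a pseudocount of 10, which shrinks differences of low genes, 3.45% of all genes were higher and 3.92% lower. With sets in place of runs, 1.43% and 1.26% of genes were separated, against 4.24% and 1.96% with runs. The median of the mature oligodendrocyte list changed sign in 3 cases: -0.0025 without OL titles 9 to 16, -0.088 without O titles 1 to 8, and -0.29 with sets weighted equally. Of 678 values for the 39 named genes, 616 stayed close, 62 moved and 0 changed sign with a difference of at least 2. Close again meant a shift below the SD between cells, or a share of cells within the exact intervals reported. This is a wide allowance: Nkain2 counted as close although its difference fell from 4.51 to 2.25 with a pseudocount of 10. No paired analysis was possible because the result comes from no test and the replicate numbers only name cells. With no mouse named for a cell, likeness within a mouse, a plate or a run of title numbers cannot be told apart, and a depth per cell cannot be read from equalized values.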
